A study of Mus musculus with 2 samples.

Results

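Matricellular proteins are secreted into the extracellular matrix but act mainly as signals rather than as load-bearing structure. They bind integrins and other receptors on nearby cells, and they are abundant in healing wounds, fibrosis and tumor stroma. Osteopontin, the product of Spp1, is recognized by integrins and by CD44, a transmembrane receptor whose main ligand is the polysaccharide hyaluronan. Fibronectin (Fn1), tenascin-C (Tnc), the thrombospondins (Thbs1 and Thbs2), periostin (Postn) and the hyaluronan-binding proteoglycan versican (Vcan) make up the provisional matrix around activated fibroblasts. The 8 genes Spp1, Cd44, Fn1, Tnc, Thbs1, Thbs2, Postn and Vcan were chosen by name from the 32285 genes of the count tables; the rule used no threshold on measured values.

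The question was which cells of a mouse ovarian tumor make each of these genes, and whether their levels differ between wild-type (WT) hosts and tight skin (TSK) hosts. TSK mice are heterozygous for a duplication inside Fbn1, the gene of the microfibril protein fibrillin-1, and develop skin fibrosis. WT animals were littermates, and all were C57BL/6 females of 6 to 8 weeks. Every tumor grew under the skin from SO cells, a mouse ovarian cancer line. The tumors were dissociated with enzymes, and dead cells and erythrocytes were removed without any selection of cell types. The tumors of each genotype were pooled, and each pool gave 1 droplet-based single-cell library. Genotype, tumor pool and library therefore cannot be told apart, no test between genotypes could be made, and the 95% intervals below cover counting error only.

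The WT library held 21225411 unique molecular identifiers (UMIs, each standing for 1 captured RNA molecule) in 2332 cell barcodes, and the TSK library held 48296765 in 4436 barcodes. Among these, 263 barcodes occurred in both libraries and were left out. Cells with at least 200 genes, at least 500 UMIs and at most 10% mitochondrial UMIs were kept, which gave 1442 WT cells with a median of 7658 UMIs and 2961 TSK cells with a median of 7302. Each cell was placed in a lineage from its own marker UMIs, and the classes are called cancer cell-like, fibroblast-like and so on, because a class made this way is a range of marker counts rather than a proven cell type. Cells with markers of competing lineages were called mixed (149 WT and 209 TSK cells) and cells with too few marker UMIs were called unassigned (225 and 516). No doublet caller was run.

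The lineages were unequal in the 2 libraries, and this bears on every share given below. Cancer cell-like cells numbered 92 in WT (6.38% of cells) and 1055 in TSK (35.6%). Fibroblast-like cells numbered 131 and 210, macrophage-like cells 151 and 325, monocyte-like cells 136 and 95, neutrophil-like cells 38 and 169, endothelial-like cells 67 and 68, and mural-like cells, the pericytes and smooth muscle of vessel walls, 11 and 24. T and NK lymphocyte-like cells numbered 426 and 265. Of the 6 cancer cell markers, Lgals7, Krt18, Cdkn2a and Hmga2 were abundant in cancer cell-like cells of both libraries, at lower levels in TSK. Lgals7 was at 1425 CPM in WT and 831 CPM in TSK, and Krt18 at 1106 and 306 CPM. Cdkn2a was at 709 and 634 CPM, and Hmga2 at 528 and 483 CPM. The keratins Krt8 and Krt7 were not. Krt8 was at 94.0 CPM in WT and 6.92 CPM in TSK, and Krt7 was at 11.9 CPM in WT with 0 UMIs in TSK, which allows at most 0.0927 CPM. CPM here means UMIs of a gene per 1000000 UMIs of all genes, summed over the cells of a lineage in 1 library. In fibroblast-like cells all 7 fibroblast markers were seen in both libraries, led by Dcn, and their summed level was 8542 CPM in WT and 7102 CPM in TSK. Fbn1 itself was at 1576 CPM in WT and 1904 CPM in TSK fibroblast-like cells. Counts from transcript ends do not show the duplication, so this value is no check of the genotype label.

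The members lie on different chromosomes apart from Cd44 and Thbs1, which share chromosome 2. In GRCm38 coordinates from GENCODE, Spp1 spans chr5:104435118-104441050 on the plus strand, Cd44 chr2:102811141-102901665 on the minus strand, Fn1 chr1:71585520-71653200 on the minus strand and Tnc chr4:63959785-64047015 on the minus strand. Thbs1 spans chr2:118111876-118127133 on the plus strand, Thbs2 chr17:14665500-14694235 on the minus strand, Postn chr3:54361109-54391037 on the plus strand and Vcan chr13:89655312-89742509 on the minus strand. RefSeq promoter windows matched 6 of the 8 members, all except Fn1 and Thbs1. The 150 bases before the start are shown for Spp1 and Tnc, the members whose levels differed by 2-fold or more between the libraries in the lineage that held the largest share of their UMIs, and for Postn, the member with a TATAAA closest to its start. Each is written 5′ to 3′ on the strand of the gene, and capitals mark TATAAA (the TATA box), CCAAT (bound by NF-Y) and TGTGGT (a core bound by RUNX factors), searched on both strands.
Spp1, chr5:104434961-104435110, plus strand: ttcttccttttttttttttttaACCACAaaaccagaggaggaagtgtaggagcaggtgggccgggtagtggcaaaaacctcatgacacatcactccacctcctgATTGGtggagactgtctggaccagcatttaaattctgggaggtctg
Tnc, chr4:64047016-64047165, minus strand: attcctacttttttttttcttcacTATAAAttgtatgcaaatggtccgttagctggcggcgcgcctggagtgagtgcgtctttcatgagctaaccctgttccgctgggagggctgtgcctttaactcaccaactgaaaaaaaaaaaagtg
Postn, chr3:54360957-54361106, plus strand: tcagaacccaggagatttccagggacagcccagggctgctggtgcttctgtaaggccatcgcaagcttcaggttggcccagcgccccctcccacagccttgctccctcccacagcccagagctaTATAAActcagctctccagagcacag
The Spp1 window held CCAAT on the opposite strand, 46 to 42 bases before the start, and TGTGGT on the opposite strand, 128 to 123 bases before it. The Tnc window held TATAAA 126 to 121 bases before the start, and the Postn window held it 26 to 21 bases before the start. The Thbs2 window held TATAAA and CCAAT, the Vcan window CCAAT, and the Cd44 window none of the 3. Among all 32851 RefSeq windows of the same length, 7.57% held TATAAA, 24.5% CCAAT and 8.40% TGTGGT. None of the 3 motifs overlapped another in these windows, and a match is a description of the letters only.

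Over both libraries, cancer cell-like cells held the largest share of the UMIs of Spp1 (78.6%), Fn1 (53.4%) and Cd44 (29.2%). Fibroblast-like cells held the largest share for Thbs2 (73.2%), Postn (63.3%), Vcan (49.5%), Tnc (36.0%) and Thbs1 (23.5%). These shares follow the number of cells as well as the level per cell, and TSK held most cancer cell-like cells. With at most 10000 UMIs and genes per cell, cancer cell-like cells held 27.6% for Spp1, 16.7% for Fn1 and 2.85% for Cd44. Fibroblast-like cells then held 17.0% for Tnc and 5.68% for Thbs1. In WT alone, fibroblast-like cells held more than cancer cell-like cells of Fn1 (34.2% against 20.3%) and of Cd44 (19.1% against 5.77%), and monocyte-like cells held more than fibroblast-like cells of Thbs1 (28.2% against 23.3%). The highest level of Cd44 was in neutrophil-like cells, at 2414 CPM over both libraries, the highest level of Fn1 was in fibroblast-like cells, at 2792 CPM, and the highest level of Thbs1 was in neutrophil-like cells, at 1560 CPM. For Thbs1 this order held in TSK only, since in WT monocyte-like cells were higher (1516 against 1160 CPM).

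**Figure D1:**
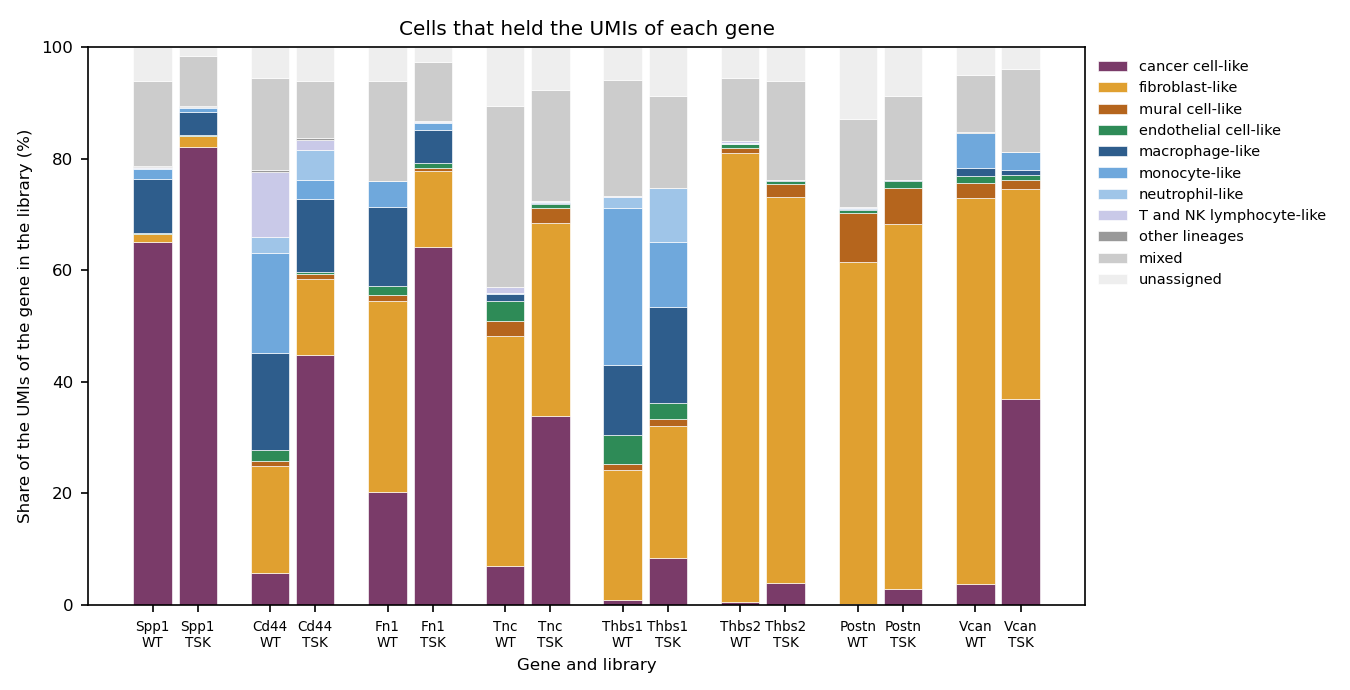
Stacked bars give, for each gene and library, the percent of the UMIs of that gene found in each lineage; bars of 1 library sum to 100%. Cancer cell-like cells took a larger share of Cd44, Fn1, Tnc and Vcan in TSK, where they were 35.6% of cells, than in WT, where they were 6.38%.

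**Figure D2:**
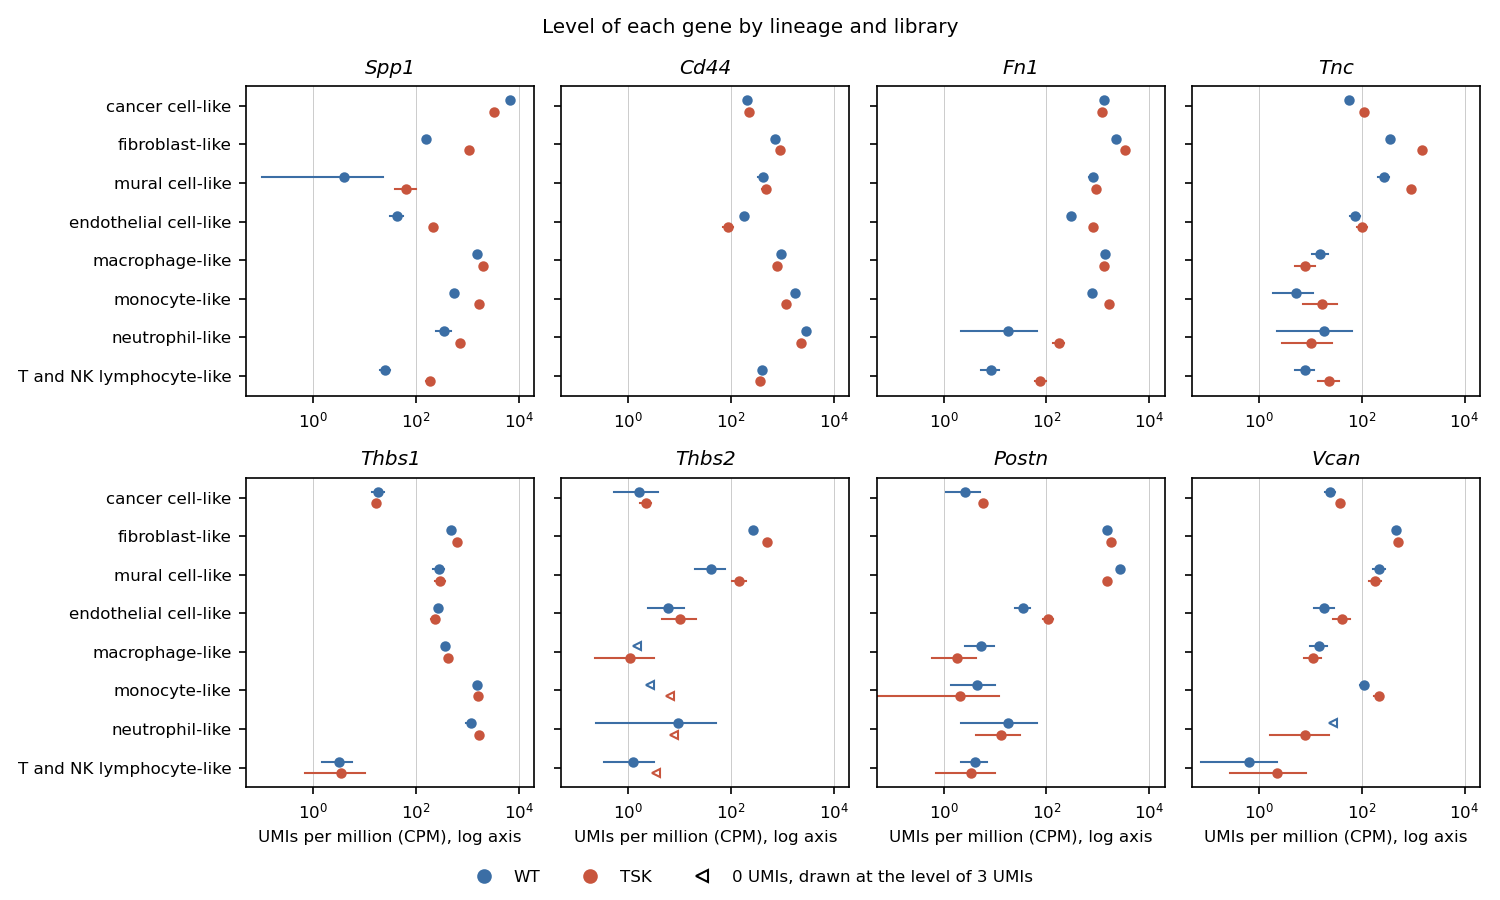
Points give the level of each gene in each lineage (CPM, log axis) for WT and TSK, lines give the 95% Poisson interval, and open triangles mark lineages with 0 UMIs at the level that 3 UMIs would give. Thbs2 and Postn were highest in fibroblast-like and mural-like cells of both libraries and Vcan in fibroblast-like cells, whereas Cd44 was highest in neutrophil-like cells and Spp1 in cancer cell-like cells.

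Between the libraries, 1 of the 8 members was higher by 2-fold or more in TSK in its leading lineage (Tnc in fibroblast-like cells), 1 was lower by 2-fold or more (Spp1 in cancer cell-like cells) and 6 were within 2-fold. For comparison, 8.28% of the 8226 genes with enough UMIs in fibroblast-like cells were higher in TSK by 2-fold or more and 3.03% were lower. In cancer cell-like cells 9.38% of 12575 genes were higher and 7.01% were lower. Across lineages, the median log2 ratio of TSK over WT of all such genes ranged from -0.06 in neutrophil-like cells to 0.28 in endothelial-like cells, and it was 0.25 in fibroblast-like and 0.16 in cancer cell-like cells, so ratios near these values do not stand apart from other genes.

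**Figure D3:**
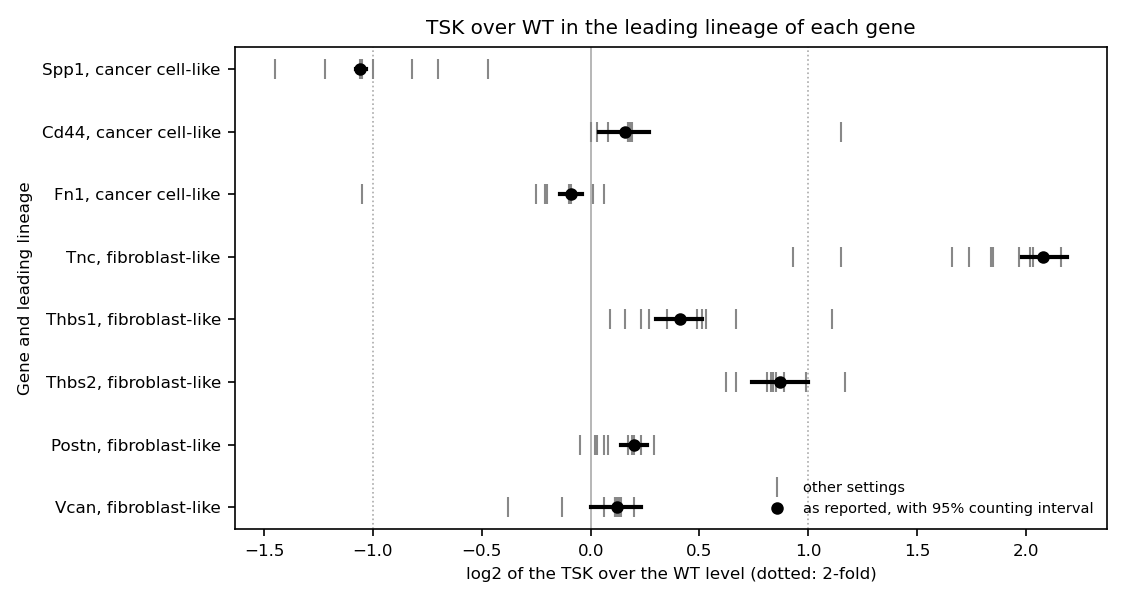
Black points give the log2 ratio of the TSK over the WT level of each gene in the lineage that held the largest share of its UMIs, with the 95% counting interval, and grey ticks give the same ratio under the other settings. Tnc lay between 0.93 and 2.16 under the other settings, Spp1 between -1.45 and -0.47, and Thbs2 between 0.62 and 1.17.

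Spp1, the ligand of CD44 in this set, was above all a gene of the cancer cell-like cells. Its level there was 6874 CPM in WT (interval 6782 to 6966, 21342 UMIs) and 3308 CPM in TSK (3288 to 3328, 107098 UMIs), a log2 ratio of -1.06 (-1.08 to -1.03). The ratio was within 2-fold with a stricter lineage gate (-0.47), with barcodes of both libraries kept (-0.70) and without the top 10% of cells (-0.82). Leaving those barcodes out was uneven: cancer cell-like cells went from 112 to 92 in WT and from 1063 to 1055 in TSK. The 6 cancer cell markers, which also define these cells, summed to 3874 CPM in WT and 2262 CPM in TSK. Lgals7 (1425 and 831 CPM) and Krt18 (1106 and 306 CPM) were lower in TSK, and so were the scarce Krt8 and Krt7. Cdkn2a (709 and 634 CPM) and Hmga2 (528 and 483 CPM) differed little. Whether the differences in markers and in Spp1 are linked was not tested. The WT level of Spp1 rested on few cells. The 10 cells with the most Spp1 UMIs held 54.9% of the Spp1 UMIs of the 92 WT cells, against 9.14% for the top 10 of the 1055 TSK cells. The median cell had 30.6 Spp1 UMIs per 10000 in WT and 16.9 in TSK, and the 90th percentile of cells was 177 and 87.8. With each cell thinned to 500 UMIs, 70.7% of WT cells (60.2% to 79.7%) and 56.4% of TSK cells (53.3% to 59.4%) had a Spp1 UMI. Thinned to 1000 UMIs, 70.7% and 71.6% had one, so the thinned shares showed no order of the libraries that held at both depths.

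The cancer cell-like cells differed in cell cycle genes between the libraries, and Spp1 differed with them. Cells with Mki67 and Top2a, both made by cycling cells, at 1 or more UMIs per 10000 numbered 28 of the 92 in WT and 752 of the 1055 in TSK. In these cells Spp1 was at 2434 CPM in WT and 2673 CPM in TSK, a log2 ratio of 0.13 (0.08 to 0.19). In cells below that limit it was at 9641 and 5803 CPM, a log2 ratio of -0.73 (-0.76 to -0.71). Spp1 was thus lower in the cycling cells of both libraries, and the 2-fold difference over all cancer cell-like cells was not present in either set. This split was chosen after the data were seen. The cancer cell-like cells were also described by clusters made without the members. Cluster 1, led by Krt18, Hmga2, Rorb and Lgals7, had 52 WT and 394 TSK cells and Spp1 at 8100 and 5612 CPM (log2 ratio -0.53, -0.55 to -0.51). Cluster 3, led by H19, Lgals7 and Krt18, had 15 and 134 cancer cell-like cells and Spp1 at 4684 and 1923 CPM (-1.28, -1.43 to -1.14). It was shallow, with a median of 1369 UMIs over all its 386 cells, against 31588, 25042 and 34062 in clusters 1, 5 and 6. Its WT level came from 539 Spp1 UMIs. Cluster 5, led by Cdkn2a, Dlk1 and Lyar, had 17 and 268 cells and Spp1 at 3108 and 1880 CPM (-0.73, -0.83 to -0.62). Cluster 6, led by Mid1, Fbn2 and Pf4, had 5 WT and 244 TSK cells and Spp1 at 965 and 1224 CPM (0.34, 0.12 to 0.57). The part of cell cycle and cluster makeup in the pooled ratio was not tested.

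Mixed cells held 10.3% of the Spp1 UMIs. Among the named lineages, macrophage-like cells were the next largest holder of Spp1 (5.30% of its UMIs). The level was 1536 CPM in WT (1483 to 1590) and 2004 CPM in TSK (1951 to 2058), a log2 ratio of 0.38 (0.32 to 0.45). The ratio was 0.01 with lineages from clusters and 0.99 with at most 10000 UMIs per cell. In monocyte-like cells Spp1 was at 552 CPM in WT and 1721 CPM in TSK (log2 ratio 1.64, 1.49 to 1.79), and among cells with no UMI of Lgals7 the ratio was 0.91 (0.72 to 1.10). The top 10 monocyte-like cells held 72.5% of these UMIs in WT and 80.1% in TSK.

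Spp1 was also found at low level in lymphocyte-like and endothelial-like cells, where the cancer cell marker Lgals7 was found too. T and NK lymphocyte-like cells had Spp1 at 25.5 CPM in WT and 187 CPM in TSK, a log2 ratio of 2.87 (2.48 to 3.27). They held 4.50 Spp1 UMIs per Lgals7 UMI in WT, from 18 Lgals7 UMIs, and 3.86 in TSK, from 42. The cancer cell-like cells of the same libraries held 4.82 and 3.98. In these lymphocytes the 6 cancer cell markers summed to 13.5 CPM in WT (43 UMIs, 6 of 6 seen) and 119 CPM in TSK (103 UMIs, with Krt8 and Krt7 at 0), and Lgals7 was the most abundant. Endothelial-like cells had Spp1 at 42.4 and 219 CPM (log2 ratio 2.37, 1.91 to 2.86) and 12.5 Spp1 UMIs per Lgals7 UMI in WT, from 4 Lgals7 UMIs, and 2.88 in TSK. The endothelial ratio was 1.19 in cells with no Lgals7 UMI, 0.25 (-0.35 to 0.86) with at most 10000 UMIs per cell and -0.74 with lineages from clusters. Macrophage-like cells, in contrast, held 397 Spp1 UMIs per Lgals7 UMI in WT and 44.3 in TSK, and fibroblast-like cells held 52.8 and 29.7. The WT values rest on only 8 Lgals7 UMIs in macrophage-like and 9 in fibroblast-like cells, so their size is uncertain. The share of lymphocytes with a Spp1 UMI after thinning to 500 UMIs, 1.41% in WT (0.519% to 3.04%) and 11.7% in TSK (8.09% to 16.2%), was taken as the reference against which Spp1 in other cells was read, although activated T cells can make osteopontin. The unthinned shares were 14.1% and 38.5%, at median depths of 6864 and 3031 UMIs.

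Against this reference, Spp1 in fibroblast-like cells was a matter of a few cells. The level was 159 CPM in WT (145 to 174) and 1078 CPM in TSK (1038 to 1120), a log2 ratio of 2.76 (2.62 to 2.91). The top 10 cells held 96.6% of the Spp1 UMIs of 131 WT cells and 80.4% of those of 210 TSK cells. After thinning, 2.29% of WT cells (0.475% to 6.55%) and 12.9% of TSK cells (8.65% to 18.2%) had a Spp1 UMI, shares whose intervals overlap those of the lymphocytes. At 1000 UMIs the shares were 5.47% and 16.6%, against 1.64% and 14.6% of lymphocytes. The unthinned shares were 19.8% and 51.0%, at median depths of 22304 and 11119 UMIs. The log2 ratio was above 2-fold under every other setting but varied widely. It was 1.36 with lineages from clusters, 2.07 without cluster 16 (described with Tnc below), 2.11 with equal weight for each cell, 2.31 with barcodes of both libraries kept, 3.71 in cells with no UMI of Lgals7, 4.34 without the top 10% of cells, 4.99 with at most 10000 UMIs per cell and 6.31 with the stricter gate.

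Cd44, the receptor, was found in every lineage with enough cells to measure, in an order that was the same at its top in both libraries. Neutrophil-like cells were highest, at 2914 CPM in WT (2603 to 3252) and 2270 CPM in TSK (2122 to 2427). Monocyte-like cells followed, at 1717 and 1152 CPM. Macrophage-like cells (921 and 788 CPM) and fibroblast-like cells (700 and 907 CPM) came next and exchanged places between the libraries. Mural-like cells (416 and 469 CPM) and T and NK lymphocyte-like cells (405 and 368 CPM) had overlapping intervals in both libraries. Cancer cell-like cells, at 204 and 227 CPM, and endothelial-like cells, at 180 and 87.7 CPM, were lowest. Over both libraries and in TSK, the cancer cell-like cells led in the number of Cd44 UMIs through their number and depth, holding 44.8% in TSK. In WT they did not lead, with 5.77% of Cd44 UMIs against 19.1% in fibroblast-like cells. After thinning, 63.2% of WT and 53.3% of TSK neutrophil-like cells had a Cd44 UMI, against 3.26% (0.678% to 9.23%) and 9.48% (7.78% to 11.4%) of cancer cell-like cells. At 1000 UMIs the cancer cell-like shares were 25.0% and 19.0%, the opposite order of the libraries, and no order is read from them.

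The log2 ratio of Cd44 in cancer cell-like cells was 0.16 (0.04 to 0.27), equal to the median of all genes in these cells. It was lower in TSK in monocyte-like cells (-0.58, -0.72 to -0.44), neutrophil-like cells (-0.36, -0.55 to -0.17) and macrophage-like cells (-0.23, -0.32 to -0.14), each by more than its counting interval and each within 2-fold. Under the other settings the neutrophil ratio lay between -0.47 and 0.79, and the macrophage ratio between -0.65 and 0.02. The 0.79 was with lineages from clusters, where the neutrophil class took in cluster 15 (70 WT and 2 TSK cells). The largest difference was in endothelial-like cells (-1.04, -1.45 to -0.64, from 212 WT and 68 TSK UMIs), where 5.83% of 5245 genes were lower by 2-fold or more. It was short of 2-fold with barcodes of both libraries kept (-0.98), in cells with no Lgals7 UMI (-0.85) and with lineages from clusters (-0.80).

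Fn1, the gene of fibronectin, which integrins assemble into fibrils, had its highest level in fibroblast-like cells, at 2275 CPM in WT (2221 to 2330) and 3422 CPM in TSK (3349 to 3496). The log2 ratio there was 0.59 (0.54 to 0.64). It passed 2-fold with at most 10000 UMIs per cell (1.04) and was 0.34 with scaling by the median gene. Almost all fibroblast-like cells took part: 99.2% of WT and 97.6% of TSK cells had a Fn1 UMI, and after thinning 67.9% and 69.5% did, against 0.469% and 3.02% of lymphocytes. In cancer cell-like cells Fn1 was at 1298 CPM in WT and 1218 CPM in TSK, a log2 ratio of -0.09 (-0.14 to -0.04), and its sign turned when barcodes found in both libraries were kept (0.06). With cells of over 10000 UMIs left out, the ratio was -1.05, from 18 WT and 202 TSK cells. In macrophage-like cells the Fn1 level was 1360 CPM in WT against 1328 CPM in TSK (-0.03, -0.11 to 0.04). The sign of that ratio depended on the setting, with -0.38 for lineages from clusters and 0.82 for cells of at most 10000 UMIs. Monocyte-like cells had 781 and 1632 CPM (log2 ratio 1.06), where 6.49% of 4005 genes were higher by 2-fold or more. This ratio was short of 2-fold under some other settings, given with the counts below. In these cells the 6 cancer cell markers summed to 5.24 and 207 CPM, and the 6 macrophage markers to 333 and 607 CPM. Their part in the Fn1 ratio was not tested. In endothelial-like cells Fn1 was at 298 and 819 CPM (1.46, 1.27 to 1.65), where 14.5% of genes were higher by 2-fold or more, and it was 1.66 in cells with no Lgals7 UMI and 0.66, short of 2-fold, with barcodes of both libraries kept. Acta2 and Col1a1, genes of other stromal cells, were also higher in TSK in these endothelial-like cells, at 42.4 and 711 CPM and at 75.5 and 480 CPM. Col3a1 (107 and 125 CPM) and Fbn1 (33.9 and 42.6 CPM), genes abundant in fibroblast-like cells, differed little there. The 7 fibroblast markers summed to 11.0 CPM in WT (3 seen, led by Dcn) and 36.1 CPM in TSK (6 seen, led by Lum, with Clec3b at 0). The 6 mural cell markers, led by Rgs5, summed to 460 and 462 CPM. The part of RNA from such cells in the Fn1 ratio was not tested. Among endothelial-like cells 37.3% of WT and 79.4% of TSK cells had a Fn1 UMI before thinning, and 8.96% (3.36% to 18.5%) and 25.0% (15.3% to 37.0%) after it.

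Tnc, the gene of tenascin-C, a large glycoprotein that is scarce in most resting adult tissue, showed the largest difference of any member in its leading lineage. Fibroblast-like cells had 348 CPM in WT (327 to 370, 1039 UMIs) and 1476 CPM in TSK (1428 to 1525, 3618 UMIs), 4.24-fold higher, a log2 ratio of 2.08 (1.98 to 2.19). Of the genes measured in these cells, 99.5% had a lower ratio. The difference lay in the amount per cell and in the depth-matched share: 38.9% of WT and 38.6% of TSK cells had a Tnc UMI at full depth, whereas after thinning 6.87% (3.19% to 12.6%) and 19.0% (14.0% to 25.0%) did, against 0.235% and 1.13% of lymphocytes. The median fibroblast-like cell had 0 Tnc UMIs in both libraries, and the 90th percentile was 7.85 UMIs per 10000 in WT and 32.6 in TSK. The top 10 cells held 69.7% of the Tnc UMIs in WT and 57.7% in TSK, and without the top 10% of cells in each library the log2 ratio was 2.16. With at most 10000 UMIs per cell, which left 22 WT and 90 TSK cells, the ratio was 0.93 (0.24 to 1.70), short of 2-fold. In cells with no Lgals7 UMI it was 2.03. Acta2, the smooth muscle actin gene, moved with Tnc in these cells, at 12.4 CPM in WT and 283 CPM in TSK. The 6 mural cell markers, all seen in both libraries and led by Abcc9, summed to 36.2 and 44.9 CPM. The part of these cells in the Tnc ratio was not tested. Mural-like cells, only 11 and 24 in number, had 273 and 928 CPM (1.77, 1.37 to 2.17), in a lineage where 7.67% of 1774 genes were higher by 2-fold or more. Cancer cell-like cells had 56.7 and 109 CPM (0.94, 0.72 to 1.17), a ratio that passed 2-fold with the stricter gate (3.17), without the top 10% of cells (1.61), with barcodes of both libraries kept (1.35) and with all cells weighted equally (1.27). They gave 6.99% of Tnc UMIs in WT and 33.8% in TSK. Macrophage-like cells had 15.5 and 8.03 CPM, and 1.47% or less of monocyte-like cells had a Tnc UMI after thinning.

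A single cluster carried much of the Tnc. Cluster 16 (14 WT and 45 TSK cells) was led by Col1a1, Col1a2, Postn, Tnc, Col5a2, Timp3, Tagln, Lox, Acta2 and Mfap5, a set with collagen and contractile genes, and it had none of the fibroblast markers among its 10 leading genes, so it was given no cell type name. Where lineages were taken from clusters it counted as fibroblast-like, since 80.0% of its 25 cells with a lineage were, and the fibroblast-like ratios with lineages from clusters include it. Since the cluster was picked for its Tnc level, its levels are a description. Tnc was at 2912 CPM in its WT cells and 5830 CPM in its TSK cells, and Spp1 was at 3934 and 4557 CPM, while Lgals7 was at 32.0 and 104 CPM. Dcn, a gene of most dermal fibroblasts, was at 518 and 947 CPM, and Acta2, the smooth muscle actin of myofibroblasts, at 1738 and 1156 CPM. By their own markers, 2 WT and 18 TSK cells of the cluster were fibroblast-like, 6 and 10 were mixed, and 4 and 14 were unassigned. Cluster 4, the main fibroblast-like cluster (134 WT and 194 TSK cells, led by Col1a2, Col1a1, Dcn and Dpt), had Dcn at 4132 and 4099 CPM. Its Tnc level was 329 CPM in WT and 768 CPM in TSK, and its Spp1 level was 186 and 495 CPM. With the cells of cluster 16 left out, the log2 ratio of Tnc in fibroblast-like cells was 1.15 (1.03 to 1.26), so the difference was smaller but was still past 2-fold.

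**Figure D4:**
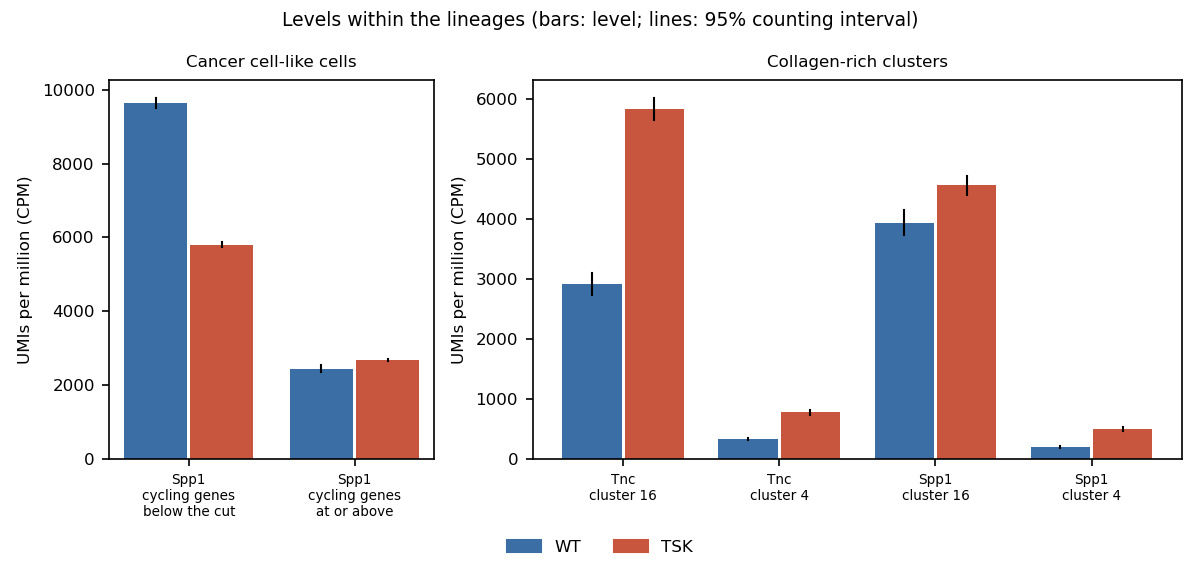
Bars give levels in CPM, with 95% Poisson intervals, of Spp1 in cancer cell-like cells by their cycling genes (Mki67 and Top2a, limit 1 UMI per 10000) and of Tnc and Spp1 in the 2 collagen-rich clusters. Spp1 was lower in TSK in the cancer cell-like cells below the cycling limit (9641 against 5803 CPM), and Tnc was higher in TSK in both clusters.

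A split by resident fibroblast genes gave a similar picture. Fibroblast-like cells with a UMI of Clec3b, Pi16 or Cd34, genes of resident adventitial and reticular fibroblasts, numbered 128 in WT and 186 in TSK. In these, Tnc was at 344 CPM in WT and 895 CPM in TSK (log2 ratio 1.38, 1.27 to 1.49). The cells without such a UMI numbered 3 in WT and 24 in TSK, and there Tnc was at 757 and 5508 CPM, and Spp1 at 568 and 4352 CPM, with the WT values resting on 20 and 15 UMIs. The split depends on depth, because a shallow cell is more likely to lack all 3 genes.

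Thbs1 and Thbs2 encode thrombospondins, ligands of CD36 and CD47, and Thbs1 is known as an activator of latent transforming growth factor beta. The pair was divided between lineages. Thbs1 was a gene of myeloid cells as well as stroma: its level was 1516 CPM in WT and 1607 CPM in TSK in monocyte-like cells (log2 ratio 0.08, -0.04 to 0.21), and 1160 and 1675 CPM in neutrophil-like cells (0.53, 0.25 to 0.82). The neutrophil ratio was 1.74 with lineages from clusters, where the class took in the cells of cluster 15, nearly all of them WT. In macrophage-like cells it was at 374 and 418 CPM, in fibroblast-like cells at 481 and 638 CPM (0.41, 0.30 to 0.51), in endothelial-like cells at 266 and 232 CPM and in mural-like cells at 277 and 295 CPM. Cancer cell-like cells (18.4 and 17.0 CPM) and lymphocytes (3.15 and 3.45 CPM) held little. Without cluster 16 the ratio in fibroblast-like cells was 0.09 (-0.03 to 0.20).

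Thbs2, by contrast, was nearly confined to stroma. Fibroblast-like cells had 271 CPM in WT (252 to 290) and 494 CPM in TSK (467 to 523), a log2 ratio of 0.87 (0.74 to 1.00), which was higher than that of 87.8% of the genes measured there but short of 2-fold. The median fibroblast-like cell had 1.43 Thbs2 UMIs per 10000 in WT and 3.11 in TSK. Mural-like cells had 40.7 and 144 CPM (1.82, 0.80 to 2.98, from 10 and 42 UMIs). Macrophage-like cells had 0 UMIs in WT and 3 in TSK, and monocyte-like cells had 0 UMIs in both libraries.

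Postn, the gene of periostin, which binds collagen and integrins, was found mainly in fibroblast-like and mural-like cells. Fibroblast-like cells had 1540 CPM in WT (1496 to 1586) and 1773 CPM in TSK (1720 to 1826), a log2 ratio of 0.20 (0.14 to 0.26). This is below the median of 0.25 of all genes in these cells, and under scaling by that median the ratio was -0.05. Mural-like cells had 2673 CPM in WT (2472 to 2886) and 1480 CPM in TSK (1343 to 1626), a log2 ratio of -0.85 (-1.03 to -0.68) from 11 and 24 cells, so the order of the 2 lineages differed between the libraries. Within the fibroblast-like cells the median was 10.7 UMIs per 10000 in WT and 9.39 in TSK, and the 90th percentile was 28.5 and 41.1. Cluster 16 had Postn at 4732 and 2690 CPM and cluster 4 at 1468 and 1550 CPM. Cancer cell-like cells had 2.58 and 5.81 CPM, and lymphocytes 4.09 and 3.45 CPM.

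Vcan, the proteoglycan whose hyaluronan complexes CD44 binds, had its highest level in fibroblast-like cells, at 465 CPM in WT (441 to 490) and 503 CPM in TSK (476 to 532). The log2 ratio was 0.12 (0.00 to 0.23), below the median of all genes. Monocyte-like cells, which are known to make versican, had 109 and 216 CPM (0.98, 0.59 to 1.37), just inside 2-fold, and the ratio passed 2-fold with at most 10000 UMIs per cell (1.70) and without the top 10% of cells (1.27), whereas macrophage-like cells had 14.5 and 11.3 CPM. Cancer cell-like cells had 24.5 and 37.6 CPM (0.62, 0.28 to 0.97), and through their number they held 3.79% of Vcan UMIs in WT and 37.0% in TSK.

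Across the lineages, the counts past 2-fold were uneven. In fibroblast-like cells all 8 members had at least 50 UMIs over both libraries. Of these, 2 were higher in TSK by 2-fold or more (Tnc and Spp1) and 0 lower, where 8.28% of genes were higher and 3.03% lower. Their median log2 ratio was 0.50 over the 8 members, beside 0.25 for all genes. In cancer cell-like cells 1 of 8 was higher (Postn, from 8 WT UMIs) and 1 lower (Spp1), where 9.38% of genes were higher and 7.01% lower. Postn there was at -1.14 with lineages from clusters. Spp1 there was within 2-fold with the stricter gate (-0.47), with barcodes of both libraries kept (-0.70) and without the top 10% of cells (-0.82). In macrophage-like cells 0 of 6 were past 2-fold in either direction, where 5.34% of genes were higher and 1.20% lower. In mural-like cells 2 of 7 were higher (Tnc and Thbs2), where 7.67% of genes were higher and 5.98% lower. In endothelial-like cells 4 of 7 were higher (Spp1, Fn1, Postn and Vcan) and 1 was lower (Cd44), where 14.5% of 5245 genes were higher and 5.83% lower. With lineages from clusters 3 of the 4 were below 0 (Spp1 -0.74, Postn -0.52 and Vcan -0.42), and with the stricter gate Postn (-0.97) and Vcan (-1.14) were. In monocyte-like cells 2 of 5 were higher (Spp1 and Fn1) and 0 lower, where 6.49% of genes were higher and 3.72% lower. Fn1 there was short of 2-fold with equal weight for each cell (0.99), with scaling by the median gene (0.89), with lineages from clusters (0.87) and in cells with no Lgals7 UMI (0.83), and Spp1 was short of it with at most 10000 UMIs per cell (0.91). In neutrophil-like cells 2 of 4 were higher (Spp1 and Fn1, the latter from 2 WT UMIs) and 0 lower, where 15.9% of genes were higher and 11.7% lower. Spp1 there was short of 2-fold with the stricter gate (0.84) and below 0 with lineages from clusters (-0.53). The 6 cancer cell markers summed to 9.14 CPM in WT (1 UMI) and 131 CPM in TSK (50 UMIs) in these cells, and their part in the ratios was not tested. In lymphocytes 2 of 3 were higher (Spp1 and Fn1) and 0 lower, where 2.65% of 6446 genes were higher and 1.72% lower. Fn1 in the lymphocytes was at 8.18 and 76.0 CPM and at 1.44 and 1.57 UMIs per Lgals7 UMI, next to 0.911 and 1.47 in cancer cell-like cells.

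The genes most like each member in level were found over 14 lineage and library units (7 lineages, 11905 genes compared). For Postn they were Adamts2 (Pearson r = 0.993), Adamts5 and Nsg1, for Thbs2 they were Srpx2 (0.990), Nfatc4 and Mmp23, and for Tnc they were Cdc42ep5 (0.975), Dcbld2 and Hoxc9. Thbs1 was most like Atrnl1 (0.970), Gda and App, Cd44 was most like Bcl6 (0.958), Pygl and Ap3s1, and Fn1 was most like Rnf217 (0.956), Ssr3 and Rrbp1. Spp1 was most like Trf (0.940), Tpi1 and Fam20c, the last of which is the kinase that phosphorylates secreted proteins such as osteopontin, and Vcan was most like Tmem43 (0.911), Glp2r and Ibtk. The units share 2 libraries and lineages that differ in depth, and these values are descriptions.

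The receptors of the members were within 2-fold in fibroblast-like cells. Of 16 receptor genes, 12 had enough UMIs there, 0 were past 2-fold in either direction, and the median log2 ratio was 0.23. Genes of this and the following lists that are named only because they passed 2-fold were chosen after their values were seen. The counts and medians of these lists stand beside 8.28% of all genes higher, 3.03% lower and a median of 0.25 in fibroblast-like cells, and beside 9.38% higher, 7.01% lower and a median of 0.16 in cancer cell-like cells. The most abundant were Lrp1 (538 and 625 CPM), Egfr (481 and 302 CPM), Itgb1 (319 and 441 CPM) and Cd47 (377 and 323 CPM). Of the same 16 genes, 14 in cancer cell-like cells had enough UMIs, 1 was higher by 2-fold or more (Itga4, 3.12, from 8 WT UMIs) and 3 were lower (Egfr -1.38, Sdc1 -1.14 and Itgb3 -1.02), with a median of -0.27. The most abundant there were Itgb1 (316 and 342 CPM), Sdc4 (208 and 175 CPM), Cd47 (172 and 101 CPM) and Itgav (359 and 3075 UMIs, log2 ratio -0.28), and Itgb1 and Itgav encode chains of integrins that bind osteopontin and fibronectin.

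Of the 20 other matricellular genes, 16 were measured in fibroblast-like cells, 1 was higher by 2-fold or more (Ccn4, 1.01) and 0 lower, with a median log2 ratio of -0.01. Sparc, which binds collagen, was at 5267 CPM in WT and 8297 CPM in TSK (0.66, 0.63 to 0.69), Ccn1 at 552 and 351 CPM (-0.65, -0.77 to -0.53), Tnxb at 365 and 468 CPM and Fbln1 at 316 and 285 CPM. The cancer cell-like cells had 10 measured genes, of which 1 was higher (Ccn2, 1.41, from 7 WT UMIs) and 0 lower, with a median of -0.06. Sparc was at 544 and 280 CPM there (-0.96, -1.03 to -0.88), Tgfbi at 272 and 182 CPM, Ccn1 at 42.8 and 49.1 CPM and Spon1 at 20.9 and 27.1 CPM.

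Of 16 hyaluronan genes and CD44 partners, 9 were measured in fibroblast-like cells, 1 was higher by 2-fold or more (the hyaluronan-degrading Cemip, 1.69) and 1 lower (Cd74, -2.19), with a median of 0.57. Tnfaip6, which links proteins to hyaluronan, was at 1178 and 1978 CPM (0.75, 0.68 to 0.81), the hyaluronan synthase Has1 at 391 and 580 CPM (0.57, 0.46 to 0.68), and Msn and Rdx, which tie CD44 to actin, at 179 and 237 CPM and at 128 and 190 CPM. The cancer cell-like cells had 12 measured genes, of which 1 was higher (Hmmr) and 3 were lower (Cemip -2.16, Ezr -1.47 and Cd74 -1.42), with a median of 0.16. Among the most abundant, Rdx was at 213 and 358 CPM, Msn at 281 and 266 CPM, the hyaluronan receptor and mitotic gene Hmmr at 62 and 2416 UMIs (1.90, 1.54 to 2.29) and Tnfaip6 at 35.1 and 57.8 CPM.

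Of 15 genes of proteases that cut the members, 12 were measured in fibroblast-like cells, 1 was higher by 2-fold or more (Adamts4, 1.71) and 0 lower, with a median of -0.19. Mmp3, a stromelysin, was at 1326 and 671 CPM (-0.98, -1.07 to -0.90), Mmp2 at 675 and 672 CPM, the versican-cutting Adamts5 at 537 and 556 CPM and Mmp14 at 600 and 445 CPM. The cancer cell-like cells had 9 measured genes, of which 0 were higher and 2 lower (Mmp9 -1.32 and Mmp2), with a median of -0.16. Plau, the urokinase gene, was at 93.4 and 88.1 CPM, Mmp2 at 154 and 76.3 CPM (-1.02, -1.16 to -0.87), Bmp1 at 95.7 and 57.1 CPM and Mmp14 at 50.2 and 39.9 CPM.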

How the data were processed

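The 10x Genomics libraries of subcutaneous SO tumors, 1 from WT and 1 from TSK hosts, were used. The values deposited by the authors are raw UMI counts per gene and barcode, with no normalization, made with Cell Ranger (7.1.0 per the file headers, 7.1.1 per the labels) on mm10. Of 32285 gene IDs, 99.6% were in GENCODE M21, which gave the GRCm38 coordinates. The members, marker lists and gene lists were chosen with earlier results of these data known.

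Cells were filtered as described with the results. The study's upper limits of 10000 UMIs and 10000 genes were an alternative here, since they remove most cancer cell-like cells. A cell took the lineage with the most summed marker UMIs (80 of 81 markers of 13 lineages were in the tables, and no member is a marker), if it had at least 3 UMIs over at least 2 markers and at least 2 times the UMIs of the second lineage. Of the cancer cell-like cells, 6 in WT and 77 in TSK were at 2 to 3 times the second, as were 8 and 14 of the fibroblast-like cells. Genes with at least 50 UMIs in a lineage over both libraries and at least 10 in either were compared with 2-fold as the mark. Intervals (95%) are exact: Poisson for levels, Clopper-Pearson for shares and conditional binomial for ratios. Counts of 0 allow up to 3 UMIs. In simulated counts the ratio intervals covered the true value for 95.7% of 8226 genes in fibroblast-like, 96.2% of 12575 in cancer cell-like and 96.1% of 7694 in macrophage-like cells. Those counts were drawn from the Poisson model that the intervals assume, so this checks the calculation only. The clumping of UMIs in a few cells was not simulated, and the intervals do not cover it. The named genes are the 8 members, the 3 genes most like each (Pearson r of log2(CPM + 10), units of at least 20 cells, genes of at least 200 UMIs) and the 4 genes of each list with the most UMIs in the 2 leading lineages.

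Clusters (Leiden, resolution 1, 2000 variable genes without the members, 30 components, 20 neighbours) were an alternative to the markers, and each took the lineage of the majority of its assigned cells. The other alternatives were a 20% mitochondrial limit, keeping barcodes of both libraries, a stricter gate (5 UMIs, 4 times the second), equal weight per cell, scaling by the median gene ratio and thinning to 1000 UMIs. Removal of cells with a Lgals7 UMI, of cluster 16 and of the top 10% of cells, and the splits of cancer cell-like cells, were chosen after seeing the data. The work used numpy 2.4.6, pandas 2.3.3 and scipy 1.17.1 in Python 3.11.15, with leidenalg 0.10.2, igraph 0.11.9 and scikit-learn 1.9.0 for clusters and matplotlib 3.10.9 for plots. Promoters are RefSeq windows of GRCm38.p6. A planned split of the macrophage-like cells is not reported here.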

Additional observations from a re-analysis of the deposited data

Results flagged for a closer look

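Spp1 was the member whose ratio between the libraries differed in direction between lineages by 2-fold or more on both sides. The log2 ratio of TSK over WT was -1.06 in cancer cell-like cells, and it was 1.64 in monocyte-like, 1.03 in neutrophil-like, 2.87 in T and NK lymphocyte-like, 2.76 in fibroblast-like and 2.37 in endothelial-like cells. With 1 library per genotype the difference between lineages was not tested. In T and NK lymphocyte-like cells Spp1 stood at nearly the same number of UMIs per Lgals7 UMI as in the cancer cell-like cells of the same library, as given above, and in neutrophil-like and endothelial-like cells the ratio turned to -0.53 and -0.74 with lineages from clusters. The neutrophil class made from clusters had 107 WT cells, of which 70 came from cluster 15 (70 WT and 2 TSK cells, median 736 UMIs, led by Pmp22, Cd24a and Mbp), where 57.9% of the 19 cells with a lineage were neutrophil-like.

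The barcodes found in both libraries, which were left out of every comparison except the setting that kept them, also held member UMIs. Those that passed the other filters held 3106376 UMIs of all genes in WT and 380072 in TSK. In the 251 that passed the other filters in WT, Spp1 was at 2589 CPM, Fn1 at 1214 CPM, Postn at 269 CPM, Thbs1 at 249 CPM, Cd44 at 215 CPM and Tnc at 152 CPM. In the 255 in TSK, Spp1 was at 1142 CPM and Fn1 at 689 CPM. Against the kept cells, these barcodes were led by the embryonic globin genes Hbb-y (1921 against 2.77 CPM) and Hba-x (976 against 1.35 CPM).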

How the results depend on the processing

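No paired analysis was possible because each genotype had 1 library. Of the 8 ratios in leading lineages, Tnc was above 0, Spp1 below 0, and Thbs1 and Thbs2 above 0 under every alternative, and none of these is a statement about animals. Values outside the counting interval of the reported ratio (log2 TSK over WT) were as follows, in the order Spp1, Cd44 and Fn1 in cancer cell-like cells and Tnc, Thbs1, Thbs2, Postn and Vcan in fibroblast-like cells. With at most 10000 UMIs and genes per cell (18 WT cancer cell-like and 22 WT fibroblast-like cells) the ratios were Spp1 -1.45, Cd44 1.15, Fn1 -1.05, Tnc 0.93, Thbs1 1.11, Postn 0.29 and Vcan -0.38. With the 20% mitochondrial limit Tnc was at 1.97. With barcodes of both libraries kept, they were Spp1 -0.70, Fn1 0.06, Tnc 1.85, Thbs1 0.23 and Postn 0.06. With the stricter gate they were Spp1 -0.47 and Thbs1 0.53. With Leiden clusters they were Fn1 -0.20, Tnc 1.74, Thbs1 0.27 and Postn 0.02. With equal weight per cell they were Spp1 -1.0, Fn1 -0.21 and Tnc 1.66. With scaling by the median gene they were Spp1 -1.22, Cd44 0.00, Fn1 -0.25, Tnc 1.84, Thbs1 0.16, Thbs2 0.62, Postn -0.05 and Vcan -0.13. Without the top 10% of cells they were Spp1 -0.82, Cd44 0.03, Fn1 0.01, Thbs1 0.67 and Thbs2 1.17. Without cluster 16 they were Tnc 1.15, Thbs1 0.09, Thbs2 0.67 and Postn 0.03, and without cells with a Lgals7 UMI Postn was at 0.08. The causes were not tested.

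Ratios past 2-fold that changed sign were Spp1 in neutrophil-like (-0.53), Spp1 in endothelial-like (-0.74), Postn in endothelial-like (-0.52), Postn in cancer cell-like (-1.14) and Vcan in endothelial-like cells (-0.42), all with Leiden clusters, and Postn (-0.97) and Vcan (-1.14) in endothelial-like cells with the stricter gate. The upper limits also moved who held the UMIs: the share in cancer cell-like cells was 27.6% for Spp1, 16.7% for Fn1 and 2.85% for Cd44, and the share in fibroblast-like cells was 17.0% for Tnc and 5.68% for Thbs1. Depth limits the low levels, where 10 UMIs or fewer decide a ratio, as for Thbs2 in mural-like and Postn in cancer cell-like WT cells.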
